A study of Homo sapiens with 24 samples.

Results

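Retinoic acid (RA) combined with knockdown (KD) of the microRNA miR-125b was compared with untreated scrambled control (SCR) cells in cells of SH-SY5Y, a line grown from a human neuroblastoma. The comparison takes 6 of the 24 arrays of the study by their titles, 3 labelled RA+ KD D2 and 3 labelled RA- SCR D2. All 6 come from day 2. The other groups of day 2, each with 3 arrays, were RA+ SCR, RA- OE, RA+ OE and RA+ OE+KD, where OE is read here as overexpression of miR-125b. The source names write DP in place of OE, which the sources used here do not explain. No group without RA carried the knockdown, so in these 6 arrays the RA part and the KD part of a change cannot be told apart. The RA+ SCR arrays are needed to part them. Even with those arrays, a KD effect that needs RA cannot be told from one that does not. The growth protocol given with the samples describes another experiment, so neither the RA dose nor the knockdown reagent is known here, nor whether replicates were separate cultures. P-values thus reflect spread between arrays alone, and that spread may be technical.

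RA enters the nucleus and binds receptors that switch on transcription at their target genes, and neuroblastoma cells treated with it stop dividing and extend neurites. A microRNA pairs with short sites in messenger RNAs, mainly through its seed near the 5′ end, and lowers the amount or the translation of those messengers. Knocking it down is meant to relieve that repression, and miR-125b is a microRNA abundant in brain. Its mature sequence is shown because it is the molecule that the KD label names, with the seed (bases 2 to 8) in capitals.
hsa-miR-125b-5p: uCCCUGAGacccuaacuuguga
The same mature sequence is encoded at 2 places in RefSeq (build GRCh38.p14), in MIR125B1 on the minus strand of chromosome 11 (122099809 to 122099830) and in MIR125B2 on the plus strand of chromosome 21 (16590253 to 16590274). miR-125b itself was not analysed here, so neither KD nor OE was checked against its level. No table used here pairs the Illumina probe IDs with genes, so probes are given by ID and no gene is named.

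Values are normalized log2 intensities, and a change is a difference of such values, so that 1 unit is a doubling. A probe was called at a limma adjusted p under 0.05 over the 10691 probes tested of the 20589 on the array. Mean scanner intensity was 680.5, 759.9 and 832.5 on the KD arrays and 737.3, 980.9 and 1134 on the RA- SCR arrays, lower with KD at each replicate number. Its part in the results was not tested. Replicate pairs of these 2 groups correlated across the tested probes at 0.994 to 0.996. KD replicate 3 lay somewhat apart from the other KD arrays, with a residual SD of 0.121 log2 against 0.0989 and 0.0979. The RA+ OE arrays were more spread than any other arrays of day 2, with residual SDs of 0.161, 0.225 and 0.138 log2. All groups share 1 estimate of the spread in the tests, so p-values of comparisons with RA+ OE arrays may be too small.

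RA plus knockdown moved about as many probes up as down. Of the tested probes, 1654 (15.5%) were higher and 1806 (16.9%) lower than in untreated scrambled arrays, together 32.4%. With a stricter filter on dim probes, 1989 of the 5697 probes then tested were called. Most of these changes were small, with a median size of 0.42 log2 and quartiles of 0.32 and 0.58. At least 2-fold, 133 probes rose and 93 fell, or 2.11% of those tested, and at least 4-fold, 25 rose and 6 fell. At 5203 probes (48.7%) the 3 KD arrays did not overlap the 3 control arrays. The even split depends on the scaling. When arrays were scaled to a common median, the median change of all probes was -0.14 log2, and higher probes made up 24.03% of those called, against 47.8% with quantile scaling. Directions of small changes are therefore relative to the scaling used.

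The large changes were spread over the range of brightness. With the tested probes cut into 4 equal bins by mean level, called probes made up 29.5% of the dimmest bin, 35.6% and 35.0% of the middle bins and 29.3% of the brightest. From the dimmest to the brightest bin, 20, 45, 37 and 31 probes rose at least 2-fold, and 22, 25, 24 and 22 fell. Of the 133 probes that rose at least 2-fold, 20 lay under the array median on all 3 untreated arrays and 108 lay above it on all 3. Of the 93 that fell at least 2-fold, 12 ended under the array median on all 3 KD arrays. Over all sizes of change, 109 of the 10691 tested probes lay under the array median on every RA- SCR array and above it on every KD array. Of these, 94 were called higher. The other way went 102, 89 of them called lower. Both sets were picked on the arrays that were tested, so calls in these directions were favoured. The large response thus took in many probes that were measured above the median on both sides.

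The largest rise belonged to ILMN_28662. Its level was 6.40, 6.17 and 6.63 on the RA- SCR arrays and 13.84, 13.78 and 13.84 on the KD arrays. On the RA+ SCR arrays it was 14.10, 14.06 and 14.01. The untreated arrays all lay far below both RA groups, and the KD arrays all lay below the scrambled RA arrays by a small step. The total change was 7.42 log2 (SE 0.123, 171.4-fold, limma adjusted p = 9.50e-25), against 7.66 log2 for RA in scrambled cells. The difference of the 2 responses, which is KD minus SCR with RA, was -0.24 log2 and did not pass the test (95% interval -0.49 to 0.02, limma adjusted p = 0.207). The test pools the spread of this probe over all groups. Its SD was 0.045 in RA+ SCR and 0.035 in RA+ KD, but 0.23 in the dim RA- SCR arrays. Failing the test therefore does not show that the step between KD and SCR arrays with RA is absent. The untreated scanner intensities of this probe were 7.2, -2.0 and 32.6, near 0 after the background subtraction, so the size of the fold depends on the background correction. It was 9.41 log2 without background correction, where scanner values under 20 were set to 20, and 9.10 log2 in the authors' normalized intensities.

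ILMN_27300 rose in the same way but to a lower level with the knockdown. It stood at 6.25, 6.31 and 6.25 without RA, at 12.75, 12.65 and 12.83 with RA and KD, and at 13.44, 13.25 and 13.27 with RA alone. The KD arrays did not overlap the RA+ SCR arrays. The total change was 6.48 log2 (SE 0.094, 89.0-fold, limma adjusted p = 6.94e-26) and that of RA in scrambled cells 7.05 log2, and the difference of -0.58 log2 (SE 0.094) passed the test (limma adjusted p = 7.73e-05). Untreated scanner intensities were 0.6, 4.4 and -0.9, so the fold of this probe too depends on the background correction. The difference between the 2 RA groups is measured among bright values and does not share that limit.

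The largest falls were those of ILMN_3487 and ILMN_23892. The 2 probes were not tested against each other. Both were dim on the KD arrays, where the background correction makes changes smaller. In the authors' normalized intensities KD minus SCR with RA was -0.61 log2 for ILMN_3487 and -1.48 log2 for ILMN_23892. ILMN_3487 went from 10.84, 10.75 and 10.89 without RA to 7.14, 7.18 and 7.36 with RA and KD, and stood at 7.54, 7.48 and 7.54 with RA alone. Its total change was -3.60 log2 (SE 0.108, limma adjusted p = 2.70e-19) against -3.31 in scrambled cells. Its KD arrays lay below the RA+ SCR arrays, but the difference of -0.29 log2 did not pass the test (95% interval -0.52 to -0.07, limma adjusted p = 0.0651). ILMN_23892 went from 10.78, 10.68 and 10.52 to 7.40, 7.37 and 7.14, with RA alone at 8.43, 8.17 and 8.19. Its total change of -3.36 log2 (SE 0.117, limma adjusted p = 7.69e-18) exceeded that of -2.40 in scrambled cells, and the difference of -0.96 log2 (SE 0.117) passed the test (limma adjusted p = 1.47e-06). RA with KD thus carried ILMN_23892 well past its level with RA alone.

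**Figure D1:**
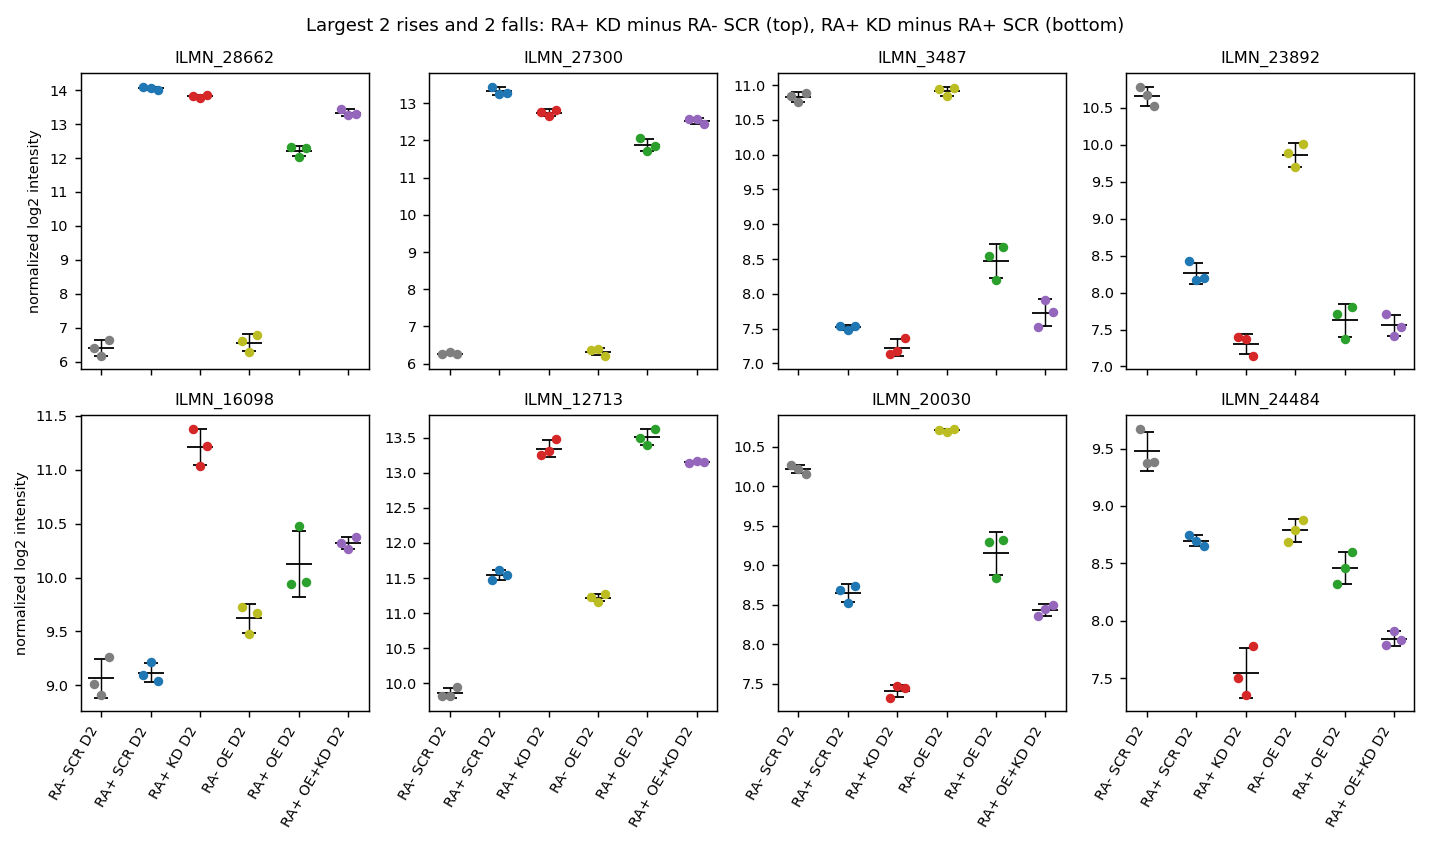
Normalized log2 intensity (vertical axis) of 8 probes on each array of the 6 day 2 groups (horizontal axis), with points for arrays and bars for the mean ± SD of 3. The top row holds the 2 largest rises and the 2 largest falls of the total response, where RA+ SCR and RA+ KD lie nearer to each other than to RA- SCR, and the bottom row the 2 most positive and the 2 most negative differences between RA+ KD and RA+ SCR.

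The question that the comparison addresses is how the total response to RA with knockdown compares with the response to RA without it. No KD array lacked RA, so a KD effect also present without RA cannot be told from a changed response to RA. The total response and the RA response are both measured from the same 3 RA- SCR arrays, so no overlap or correlation between them is given. Their difference is exactly RA+ KD minus RA+ SCR. That difference was called at 1744 probes (16.3% of those tested), 921 higher (8.61%) and 823 lower (7.70%), of which 40 and 8 were at least 2-fold (0.449%). KD and SCR arrays with RA did not overlap at 36.0% of the tested probes. The count of 1744 was 2960 with array weights and 1128 with the stricter filter on dim probes. The response to RA alone in scrambled cells was called at 2073 probes (19.4%), with 89 rising and 57 falling at least 2-fold (1.37%), and its 2 groups did not overlap at 42.4%. Its count was 3739 with array weights and 1243 with the stricter filter. The SD of the change over the tested probes was 0.39 log2 for the total response, 0.33 for RA alone and 0.24 for their difference. By SD, the changes between KD and SCR arrays with RA were therefore less spread than those of RA itself. The SDs include the spread between arrays and weigh the largest changes most. Among called probes the median size was similar, 0.408 log2 for the difference and 0.413 log2 for RA alone. At least 4-fold, RA alone raised 20 probes and lowered 5, while the difference was positive at 1 and negative at 0.

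The largest positive difference was at ILMN_16098, a probe that RA alone left near its untreated level. It stood at 9.02, 8.91 and 9.26 in RA- SCR, 9.09, 9.22 and 9.04 in RA+ SCR, and 11.38, 11.04 and 11.22 in RA+ KD arrays. The 2 scrambled groups overlapped and the KD arrays lay above both. Its total change was 2.15 log2 (SE 0.122, limma adjusted p = 3.08e-13), of which the difference from the scrambled response was 2.09 log2 (4.27-fold, limma adjusted p = 1.31e-11). The RA change in scrambled cells was 0.05 log2 (95% interval -0.20 to 0.30, limma adjusted p = 0.807).

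At ILMN_12713 the RA change and the difference with KD were of similar size and of the same sign. It rose from 9.82, 9.82 and 9.94 to 11.48, 11.61 and 11.54 with RA alone and to 13.25, 13.30 and 13.48 with RA and KD. The 3 groups formed separate steps. The total change of 3.48 log2 (SE 0.081, 11.2-fold, limma adjusted p = 1.23e-21) was made of 1.68 for RA in scrambled cells and 1.80 for KD minus SCR with RA (limma adjusted p = 6.48e-14).

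The 2 most negative differences also ran in the same direction as RA. ILMN_20030 fell from 10.27, 10.22 and 10.16 without RA to 8.69, 8.52 and 8.74 with RA alone and to 7.32, 7.47 and 7.45 with RA and KD. Its total change was -2.80 log2 (SE 0.099, limma adjusted p = 1.13e-17), with -1.57 for RA in scrambled cells and -1.23 for the difference (limma adjusted p = 1.76e-09). ILMN_24484 fell from 9.67, 9.37 and 9.39 to 8.75, 8.70 and 8.65, and to 7.50, 7.35 and 7.78 with KD. The groups of both probes did not overlap. The total change of ILMN_24484 was -1.93 log2 (SE 0.107), against -0.78 with RA alone, and the difference was -1.15 log2 (limma adjusted p = 1.87e-08). Both probes were dim on the KD arrays, so the sizes of their falls depend on the background correction. In the authors' normalized intensities the differences were -1.82 log2 for ILMN_20030 and -1.68 log2 for ILMN_24484.

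The RA response that is also seen in OE cells was then compared between KD and SCR arrays with RA. Probes were chosen in arrays that enter neither scrambled nor KD values. Probes with a small RA change in OE cells are left out by this choice. One is ILMN_3001, with an RA change of 0.08 log2 in OE and 1.09 log2 in scrambled cells. The lists therefore do not stand for the whole RA response. In OE arrays RA raised 106 probes and lowered 56 by at least 2-fold, 1.52% of those tested. These lists rest on the RA+ OE arrays, the most spread of day 2. Read in the total response, 102 of the 106 raised probes were called higher, where 15.5% of all tested probes were, and none was called lower. Their median total change was 1.26 log2 (quartiles 0.89 and 1.79), beside 1.17 log2 for RA in scrambled cells, where 105 were called higher (background 9.31%). Of the 56 lowered probes, 52 were called lower in the total response (background 16.9%) with a median of -1.22 log2, beside -1.16 and 55 called lower in scrambled cells (background 10.1%). In both responses nearly all probes of the RA programme seen in OE cells thus moved as they did there, and by similar median amounts.

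The same probes were not shifted in 1 direction between KD and SCR with RA, yet many of them differed. Among the 106 raised probes the median of KD minus SCR was 0.02 log2 (quartiles -0.18 and 0.22), and 21 were called higher and 18 lower. Together these 39 are 36.8% of the list, where 16.3% of all tested probes were called. Among the 56 lowered probes the median was -0.00 log2 (quartiles -0.14 and 0.14), with 9 called higher and 8 lower, or 30.4%. The median over all tested probes was -0.01 log2. With median scaling the medians of KD minus SCR were -0.02 and -0.04 log2 for the raised and lowered lists, beside -0.05 for all tested probes. Without KD replicate 3 the calls were 20 higher and 17 lower in the raised list, and 7 higher and 10 lower in the lowered list.

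**Figure D2:**
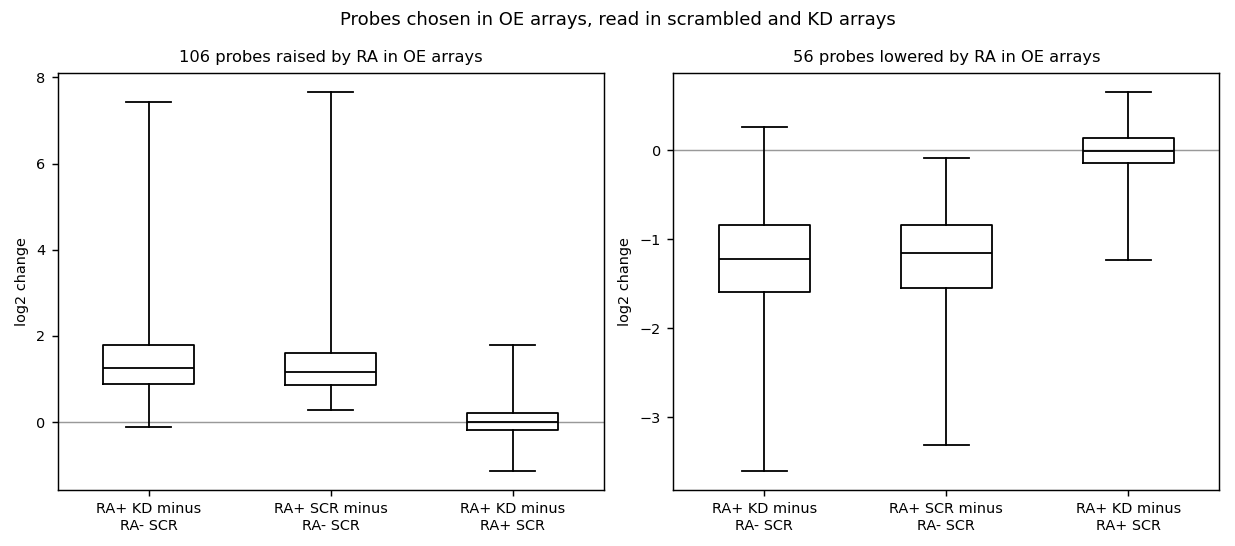
Log2 changes (vertical axis) of the 106 probes that RA raised and the 56 that it lowered at least 2-fold in OE arrays, read in 3 comparisons of scrambled and KD arrays. Boxes hold the quartiles and the median and whiskers reach the lowest and highest probe. The boxes of KD minus SCR with RA are centred near 0 while the other boxes stand apart from 0.

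A score for this RA programme of OE cells gave the same picture array by array. It is the mean log2 level of the 106 raised probes minus that of the 56 lowered probes. It was -1.43, -1.36 and -1.41 on the RA- SCR arrays, 1.35, 1.44 and 1.38 on the RA+ SCR arrays and 1.43, 1.51 and 1.45 on the RA+ KD arrays. Both RA groups lay far above the untreated arrays, and the KD and SCR arrays with RA overlapped. Taken by replicate number, KD was higher than SCR with RA in each of the 3 pairs, by 0.077, 0.075 and 0.066 log2. The means were -1.40 ± 0.04, 1.39 ± 0.04 and 1.46 ± 0.04 (SD, n = 3 each). KD minus SCR with RA was 0.07 log2, beside 2.79 for RA in scrambled cells. That difference was 0.0128 log2 without background correction and 0.000233 log2 in the authors' normalized intensities.

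**Figure D3:**
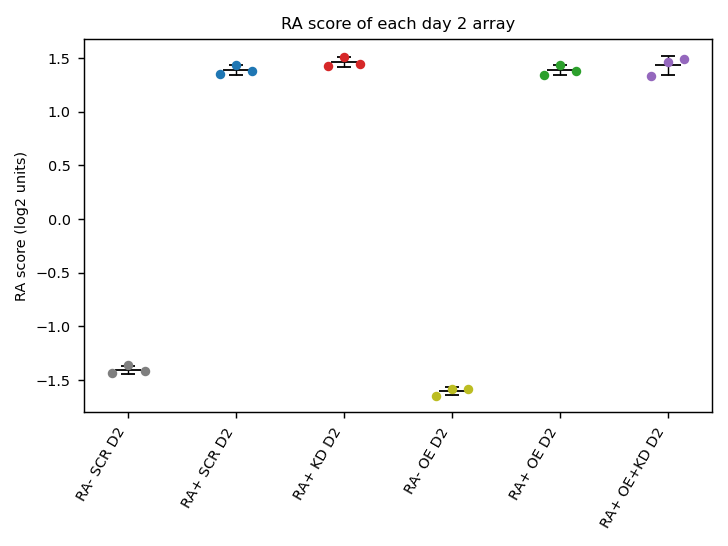
RA score in log2 units (vertical axis) of each array of the 6 day 2 groups (horizontal axis), with points for arrays and bars for the mean ± SD of 3. The 4 groups with RA lie between 1.33 and 1.51 and the 2 groups without RA lie at -1.36 or lower, and the probes were chosen on the RA- OE and RA+ OE arrays.

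The total response was then set against the response to RA in OE cells, RA+ OE minus RA- OE, with which it shares no array. RA in OE cells, measured with the widely spread RA+ OE arrays, was called at 2442 probes (22.8%). Its 2 groups did not overlap at 32.3% of the tested probes. The count was 1456 with the stricter filter and 1078 in a fit of its 2 groups alone. The changes correlated at r = 0.71 (Spearman's rho 0.53) across the 10691 probes, which are not independent replicates and share the array design and the normalization. Both comparisons called 1414 probes, and 1364 of them (96.5%) changed in the same direction. The 722 probes called higher in both were 43.7% of those higher in the total response and 59.97% of those higher with RA in OE cells. The 642 called lower in both were 35.5% and 51.9%. Among the 133 probes that rose at least 2-fold in the total response, 114 were called higher with RA in OE cells (background 11.3%) and their median change there was 1.02 log2. Among the 93 that fell, 83 were called lower (background 11.6%), with a median of -0.88.

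The total response and the RA response of OE cells themselves differed at 853 probes (7.98%), 460 positive (4.30%) and 393 negative (3.68%), 37 and 17 of them at least 2-fold (0.505%). With median scaling 30.2% of the differences were positive in place of 53.9%. Of the 1364 probes that changed in the same direction in both, 154 were called for the difference, 121 with the larger change in the total response and 33 with the larger change in OE cells. The count of 853 was 500 when only the groups compared were fitted, 1487 with array weights and 1344 with a block for the replicate number.

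The largest of these differences was at ILMN_3001. It rose from 9.27, 9.21 and 9.43 in RA- SCR to 11.56, 11.52 and 11.44 in RA+ KD arrays, by 2.20 log2 (SE 0.121). In OE arrays it stood at 9.79, 9.58 and 9.64 without RA and at 10.03, 9.37 and 9.87 with RA, and those 2 groups overlapped. The difference of the responses was 2.12 log2 (SE 0.171, limma adjusted p = 4.20e-08). In scrambled cells RA alone raised it by 1.09 log2, with RA+ SCR arrays at 10.43, 10.36 and 10.38, and KD minus SCR with RA was 1.11 log2 (limma adjusted p = 2.66e-07). At this probe the RA+ SCR arrays thus lay between the RA+ OE and the RA+ KD arrays.

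ILMN_28662 also rose more in the total response than in OE cells, by 1.77 log2 (SE 0.174, limma adjusted p = 2.76e-07). The most negative difference, -1.60 log2 (SE 0.151, limma adjusted p = 2.30e-07), was that of ILMN_24484, with a change of -1.93 log2 in the total response and of -0.33 in OE cells. ILMN_10350 changed in opposite directions. It was 11.50, 11.76 and 11.61 in RA- SCR and 10.73, 10.80 and 10.68 in RA+ KD arrays, a change of -0.88 log2 (SE 0.114, limma adjusted p = 1.11e-06), while in OE cells RA raised it by 0.40 (limma adjusted p = 0.0117). In scrambled cells the RA change of ILMN_10350 was 0.00 log2 (95% interval -0.23 to 0.24).

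The same pair of agents was also given to OE cells. RA+ OE+KD minus RA- OE shares no array with the total response, and it was called at 3708 probes (34.7%), with 118 rising and 81 falling at least 2-fold (1.86%). Its 2 groups did not overlap at 50.7% of the tested probes, and its count was 2246 with the stricter filter. The 2 changes correlated at r = 0.75 (Spearman's rho 0.63) across probes. Of the 2040 probes called in both, 1939 (95.05%) changed in the same direction. The 904 higher in both were 54.7% of those higher in the total response and 51.1% of those higher in OE cells, and the 1035 lower in both were 57.3% and 53.4%. Of the 133 probes that rose at least 2-fold in the total response, 122 were called higher in OE cells (background 16.5%) and 2 lower, with a median of 1.09 log2, and of the 93 that fell, 88 were called lower (background 18.1%), with a median of -0.98.

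**Figure D4:**
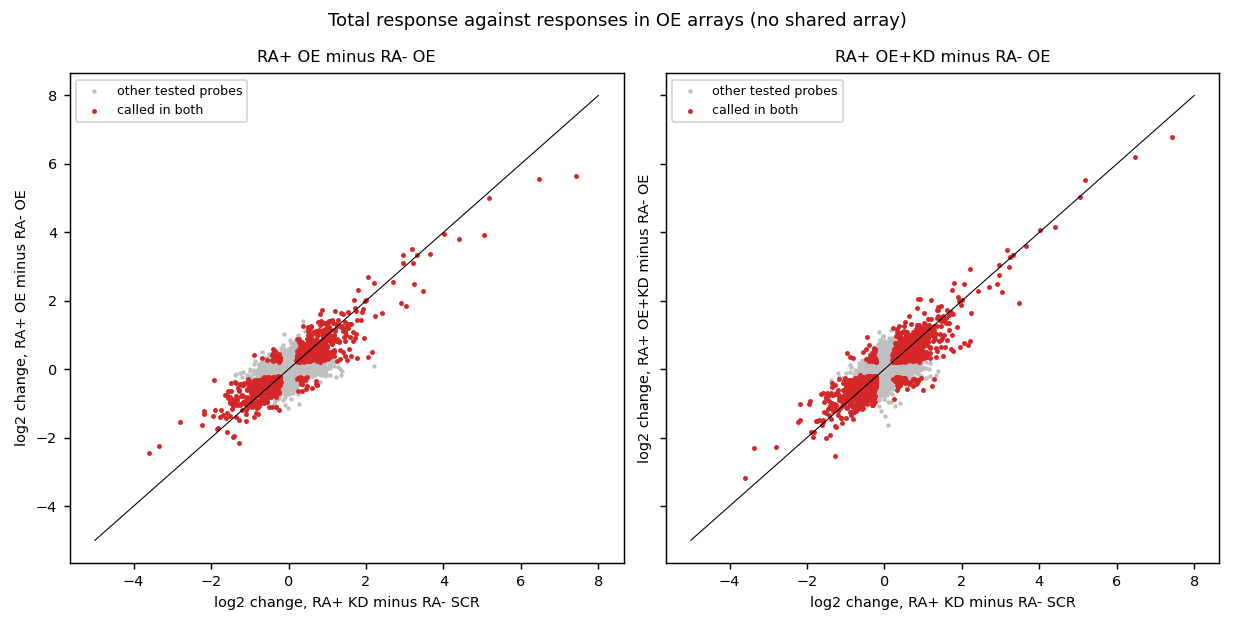
Log2 change of each of the 10691 tested probes in the total response (horizontal axis) against its log2 change with RA in OE arrays (left, vertical axis) and with RA and KD in OE arrays (right, vertical axis). Red probes were called in both comparisons, grey are the others, and the line marks equal changes. Most red probes lie in the quadrants of equal sign, 96.5% on the left and 95.05% on the right.

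The 2 largest rises and the 2 largest falls of the total response were also those of RA in OE cells, where ILMN_28662 rose by 5.66 log2 and ILMN_27300 by 5.55, and the changes of ILMN_3487 and ILMN_23892 were -2.44 and -2.24. With RA and KD in OE cells the largest rises were again those of ILMN_28662 (6.78 log2) and ILMN_27300 (6.20 log2), and the largest falls those of ILMN_3487 (-3.18 log2) and ILMN_16591 (-2.53 log2). ILMN_16591 changed by -1.28 log2 (SE 0.092, limma adjusted p = 4.33e-11) in the total response, and the difference of 1.25 log2 between the 2 responses passed the test (limma adjusted p = 6.44e-07). Its mean went from 8.37 to 7.09 in the total response and from 9.49 to 6.96 in OE cells. The untreated levels thus lay further apart than the end levels. Both end levels were dim, and the total change was -2.11 log2 in the authors' normalized intensities.

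The difference between the 2 backgrounds was called at 900 probes, 8.42% of those tested, 467 positive (4.37%) and 433 negative (4.05%), with 0.524% at least 2-fold, and at 1704 with array weights. At the 4 probes named for it, the untreated OE and SCR arrays did not overlap. Both untreated groups enter the difference by which these probes were picked, so the choice favours such a gap. The share of all tested probes with this gap is not given here, so nothing is drawn from it. ILMN_13364 stood at 6.53, 6.45 and 6.51 in RA- SCR and 6.61, 6.75 and 6.44 in RA+ KD arrays, groups that overlapped. In OE arrays it went from 8.54, 8.46 and 8.53 without RA to 6.93, 7.13 and 6.60 with RA and KD. The change was -1.62 log2 in OE cells, and the total response of 0.10 log2 did not pass the test (limma adjusted p = 0.518). Scanner intensities of this probe were 13.9, 12.6 and 21 on the RA- SCR arrays and 19.2, 30.6 and 12.1 on the RA+ KD arrays. At such levels near the background a fall could hardly be measured, so the test cannot tell whether scrambled cells lack the response of OE cells. The probe passed the filter through OE groups. The difference of the responses was 1.73 log2 (SE 0.157, limma adjusted p = 7.44e-08). It was 3.06 log2 without background correction, where scanner values under 20 were set to 20.

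ILMN_21370 gave the most negative difference. It was 10.11, 10.21 and 10.15 in RA- SCR and 9.11, 9.15 and 9.31 in RA+ KD arrays, a change of -0.97 log2 (SE 0.087, limma adjusted p = 2.13e-09). In OE arrays it went up, from 7.96, 7.80 and 8.02 without RA to 8.37, 8.44 and 8.36 with RA and KD, by 0.46 log2 (limma adjusted p = 0.000173). The difference was -1.43 log2 (SE 0.122, limma adjusted p = 3.59e-08). RA+ KD and RA+ OE+KD arrays were thus nearer to each other than the untreated arrays were. ILMN_4343 rose by 1.22 log2 in the total response, from 8.03, 8.14 and 8.11 to 9.27, 9.25 and 9.41, while its change in OE cells was -0.48, a difference of 1.70 log2 (SE 0.145, limma adjusted p = 3.59e-08). ILMN_12727 went from 12.11, 11.94 and 12.09 in RA- SCR to 11.53, 11.68 and 11.59 in RA+ KD arrays, a change of -0.45 log2. In OE cells it rose by 0.93, a difference of -1.38 log2 (SE 0.161, limma adjusted p = 2.47e-06). In scrambled cells RA alone changed ILMN_21370 by -0.06 and ILMN_4343 by -0.25 log2, neither called, and ILMN_12727 by -0.44 log2, which was called. KD minus SCR with RA was -0.91 log2 for ILMN_21370 and 1.47 log2 for ILMN_4343, both called, and -0.01 log2 for ILMN_12727, not called.

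One column of the authors' deposited table of log2 fold changes is headed RA+ KD D2 vs RA- SCR D2, and it does not hold that comparison. Over all 20589 probes its values equalled the mean log2 of the authors' normalized intensities of KD replicates 1 and 2 minus that of the 3 RA+ SCR arrays, each within a tolerance of 1e-06. Against KD minus RA- SCR from the same intensities the deposited values differed by up to 9.39 log2 and correlated at r = 0.524 across probes. Against all 3 KD arrays minus RA+ SCR the largest deviation was 0.50 log2 and r was 0.958. The column thus gives KD against SCR within RA, leaves out KD replicate 3, and lacks the RA response. For ILMN_28662 the authors' deposited table gives -0.29 log2, where KD minus RA- SCR was 9.10 in the authors' normalized intensities. For ILMN_3487 the authors' deposited table gives -0.75, where that difference was -4.61. The highest value in the column of the authors' deposited table is 2.59 and the lowest -1.91. No source used here says why replicate 3 was left out.

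**Figure D5:**
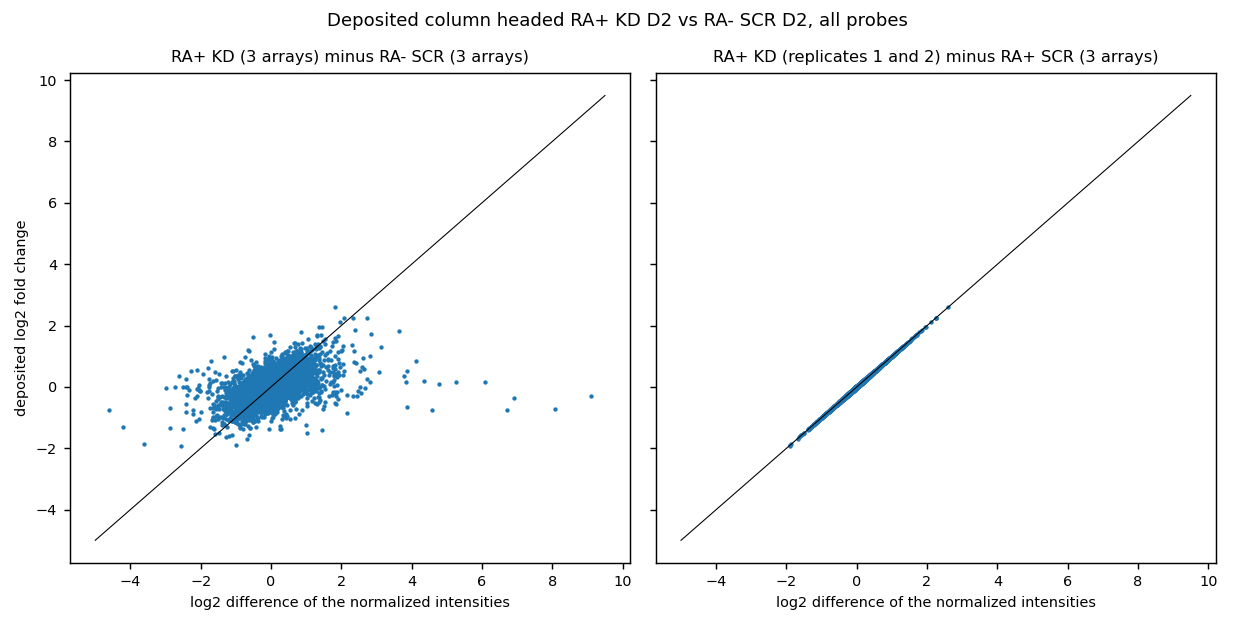
Deposited log2 fold change in the column headed RA+ KD D2 vs RA- SCR D2 (vertical axis) against log2 differences of the authors' normalized intensities (horizontal axis), 1 point for each of 20589 probes, with a line at equality. On the left, KD minus RA- SCR scatters off the line at r = 0.524, and on the right, KD replicates 1 and 2 minus RA+ SCR falls on it.

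Without KD replicate 3 the total response was called at 3487 probes and the difference from the scrambled response at 1734. Both counts are close to those with all arrays.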

How the data were processed

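Total RNA labelled with biotin was measured on 24 Illumina arrays, per the labels' protocols. The deposited scanner table holds linear intensity values, of which 14.3% to 17.6% were negative on each array, as values are after a background subtraction. The authors' normalized intensity table has values under 20 at 20, and the method is not given in the sources used here. The authors' deposited fold changes are log2, per the file headers, and their weights were found by least squares on the normalized log2 intensities. Scanner values were corrected with normexp (offset 50), put on the log2 scale and quantile normalized (limma 3.58.1, R 4.3.3), and this offset makes changes of dim probes smaller. Probes above the array median on all 3 arrays of at least 1 of the 8 groups were tested (51.9%). A single limma model (lmFit and eBayes) took all arrays with a mean per group, leaving 16 residual degrees of freedom, with Benjamini-Hochberg adjustment. All adjusted p-values are limma's. The procedure was also run on simulated data, and the outcome is not given here. Each simulated probe had 1 spread on all arrays, so groups of unequal spread were not covered. No pair of arrays held identical values. Plots used Python 3.11.15, pandas 2.3.3 and matplotlib 3.10.9.

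In every comparison the text names 2 called probes from each end of the ranking by log2 change, with replicates not overlapping where 2 groups were compared. The 4 gene lists planned could not be run without gene names. The comparisons and lists were chosen with earlier results of these data known. Replicate numbers come from the titles. Same-numbered arrays deviated together at every pair for RA+ KD with RA- SCR (r of 0.106 to 0.219) and with RA+ SCR (0.115 to 0.255). The same held for RA+ SCR with RA- SCR (0.251 to 0.458), but not at every pair of the comparisons with OE arrays. The numbers were therefore taken to pair the scores of KD and SCR arrays with RA. The main tests did not use this pairing, which enters only the alternative with a block for the replicate number. Alternatives covered background, scaling, filter, array weights, the arrays fitted, the block and single arrays left out. The alternative without background correction set scanner values under 20 to 20.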

Additional observations from a re-analysis of the deposited data

Results flagged for a closer look

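The following differences between responses passed a test of the difference itself. The total response differed from the RA response of scrambled cells at 1744 probes, from the RA response of OE cells at 853 probes, and from the response of OE cells to RA with KD at 900 probes.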

How the results depend on the processing

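The number of called probes stayed within 1.5 times its value in 114 recomputations, the score (held to 1 SD) included, and moved further in 14. With a stricter filter on dim probes, which tests fewer probes, the counts were 1989 for the total response, 1128 for its difference from the scrambled RA response, 1243 for RA in scrambled cells, 1456 for RA in OE cells and 2246 for RA with KD in OE cells. With array weights they were 2960 for the difference from the scrambled response, 3739 for RA in scrambled cells, 1487 for the difference from RA in OE cells and 1704 for the difference of the total responses. When only the groups compared were fitted, they were 1078 for RA in OE cells and 500 for the difference from RA in OE cells. Apart from the stricter filter, the cause was not tested. The difference of the RA score between KD and SCR was 0.0128 log2 without background correction and 0.000233 log2 in the authors' normalized intensities. With the replicate number as a block the total response was called at 4047 probes and its difference from the scrambled response at 2345, and the block moved 1 count by over 1.5 times, that of 853 to 1344. Leaving out 1 array at a time gave 2628 to 3487 for the total response, 1279 to 1734 for the difference from the scrambled response, 1528 to 1624 for RA in scrambled cells, 1788 to 2690 for RA in OE cells, 569 to 1206 for the difference from RA in OE cells, 2940 to 3237 for RA with KD in OE cells and 706 to 811 for the difference of the total responses. Every probe named by the rule kept its sign and its call in its own comparison under all alternatives run that tested it. With median scaling 28.1% of the called probes of RA in scrambled cells were higher in place of 48.0%, and 26.8% of those of RA with KD in OE cells in place of 47.7%. Leaving out, together, replicate 3 of the 3 groups with RA and KD or OE, chosen after seeing the data, gave 3567 for the total response. The number of arrays and the dim end of the scale limit the precision.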
